A study of Mus musculus with 15 samples.

Results

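Small nucleolar RNAs and small Cajal-body RNAs are short non-coding RNAs that guide chemical modification of other RNAs. Their genes were taken from whole-thymus array data as every gene whose name on the array begins Snord, Snora or Scarna followed by a number and whose probe set carries that single name. With the probe set of highest mean kept for each name, 54 of the 19938 genes measured met this rule. They comprised 31 box C/D RNAs (Snord), 20 box H/ACA RNAs (Snora) and 3 Cajal-body RNAs (Scarna). Their RefSeq transcripts are between 45 and 275 nucleotides long, with a median of 91. Each level below is a deposited log2 value of 1 probe set, and each difference is a difference of group means on that log2 scale.

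All 15 mice were 5-week-old females, and each gave whole thymus for 1 array 2 h after an intravenous injection of 0.5 µg peptide. The mice were of strain NOD.LCMV or strain NOD.Ln82-LCMV, and within each strain they received either gp33 or a control peptide that binds Db. There were 3 NOD.LCMV mice with control peptide, 3 NOD.LCMV mice with gp33, 4 NOD.Ln82-LCMV mice with control peptide and 5 NOD.Ln82-LCMV mice with gp33. The design compares the response to gp33 in each strain and the strains under each peptide. Both strains carry LCMV in their name, so no group lacks what that label stands for. The labels describe neither that transgene nor the Ln82 segment, and name no batch, so a batch that followed strain cannot be told apart from strain. Whole organs were measured, so fewer cells of a type and less RNA per cell cannot be told apart.

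As background, box C/D RNAs direct 2′-O-methylation and box H/ACA RNAs direct pseudouridylation, mainly of ribosomal RNA, while Cajal-body RNAs guide the same changes in the small RNAs of the spliceosome. A few, among them Snord118 and Snord14e, take part in the cleavage of precursor ribosomal RNA instead of, or beside, modification. In mammals most are not transcribed from their own promoters. They lie in introns of host genes and are trimmed from the excised intron, where core proteins bind and protect them. Many hosts encode ribosomal proteins or ribosome assembly factors, and other hosts, such as the Snhg genes, are long non-coding RNAs.

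Of the 54 genes, 53 lay within the span of another gene. The shortest such gene was a ribosomal protein gene for 21, another protein-coding gene for 17 and a long non-coding RNA gene for 15. Snord118, the U8 RNA, which has its own gene, lay within none. The 53 genes shared 43 hosts, and 10 of these hosts held a pair. A probe set inside a host cannot tell the mature small RNA from unspliced host transcript, and this holds for each value below. The genes for Snora73a and Snora73b are near-identical copies, and 6 genes (Scarna17, Snora3, Snora21, Snora30, Snord58b and Snord118) had a second probe set, so for these it is uncertain which copy is measured.

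Because transcription of a host sets how much intron is made, the host start regions are shown for 6 hosts on which later comparisons turn. Transcripts of many ribosomal protein genes begin with an unbroken run of pyrimidines, so the longest such run is marked in each window. Each window runs 5′ to 3′ from 45 bases before to 15 bases after the annotated start (RefSeq, GRCm38.p6), with the longest run of C or T on the gene's own strand in capitals.
Rack1, chr11:48800315-48800374, plus strand, host of Snord95 and Snord96a: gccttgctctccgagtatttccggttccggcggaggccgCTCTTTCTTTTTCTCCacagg
Rpl4, chr9:64173342-64173401, plus strand, host of Snord16a: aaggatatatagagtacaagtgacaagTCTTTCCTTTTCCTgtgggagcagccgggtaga
Ncl, chr1:86359441-86359500, minus strand, host of Snora75 and Snord82: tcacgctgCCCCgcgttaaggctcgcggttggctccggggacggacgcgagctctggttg
Wdr43, chr17:71616170-71616229, plus strand, host of Snord53: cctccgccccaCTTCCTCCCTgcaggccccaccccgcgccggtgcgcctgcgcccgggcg
Ipo7, chr7:110018270-110018329, plus strand, host of Snora23: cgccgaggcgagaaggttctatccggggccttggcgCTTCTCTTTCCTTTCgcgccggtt
Eef2, chr10:81176586-81176645, plus strand, host of Snord37: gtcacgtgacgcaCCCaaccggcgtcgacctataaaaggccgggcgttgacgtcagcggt

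The run spans the annotated start in Rack1 (16 bases) and Ipo7 (15 bases), and lies just before it in Rpl4 (14 bases). It is 10 bases long in Wdr43, 4 in Ncl and 3 in Eef2, and in these hosts it lies well before the start. Searched on the gene's own strand, a run of at least 10 pyrimidines was in 8 of 34 start windows of 32 hosts (23.5%), against 12.2% of all 32851 start windows of this length. At least 8 were in 41.2% against 24.8%, and at least 12 in 17.6% against 6.38%. These are descriptions of the letters in a window.

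The spread of these genes was wide. The median standard deviation within groups was 0.148 over the 54 genes and 0.085 over all genes, from 0.05 for Snord55 to 0.53 for Scarna13. Array medians lay between 7.63 and 7.67 in NOD.LCMV mice and between 7.59 and 7.63 in NOD.Ln82-LCMV mice, so the strains met only at 7.63. Within NOD.LCMV they were 7.66 to 7.67 with control peptide and 7.63 to 7.64 with gp33. The mean over the 54 genes was 9.30 to 9.42 in NOD.LCMV mice with control peptide and 9.54 to 9.60 with gp33, and these groups did not overlap. In NOD.Ln82-LCMV mice it was 9.28 to 9.51 with control peptide and 9.32 to 9.68 with gp33, and these overlapped. The value of 9.68 belonged to NOD.Ln82-LCMV gp33 mouse 4, which had the highest of the 15 levels for 23 of the 54 genes and lay over 0.3 above its group median for 20, of which 17 were box C/D. The overall counts of the 54 genes called in comparisons that use this mouse's group are also given without it. Counts by class, host, chromosome or gene list, and of calls shared between peptides, are given with it alone. The list mean of 11 thymocyte markers was 10.93 to 11.74 on the 15 arrays, and was above the limit of 6.92 used for dim genes on each.

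**Figure D1:**
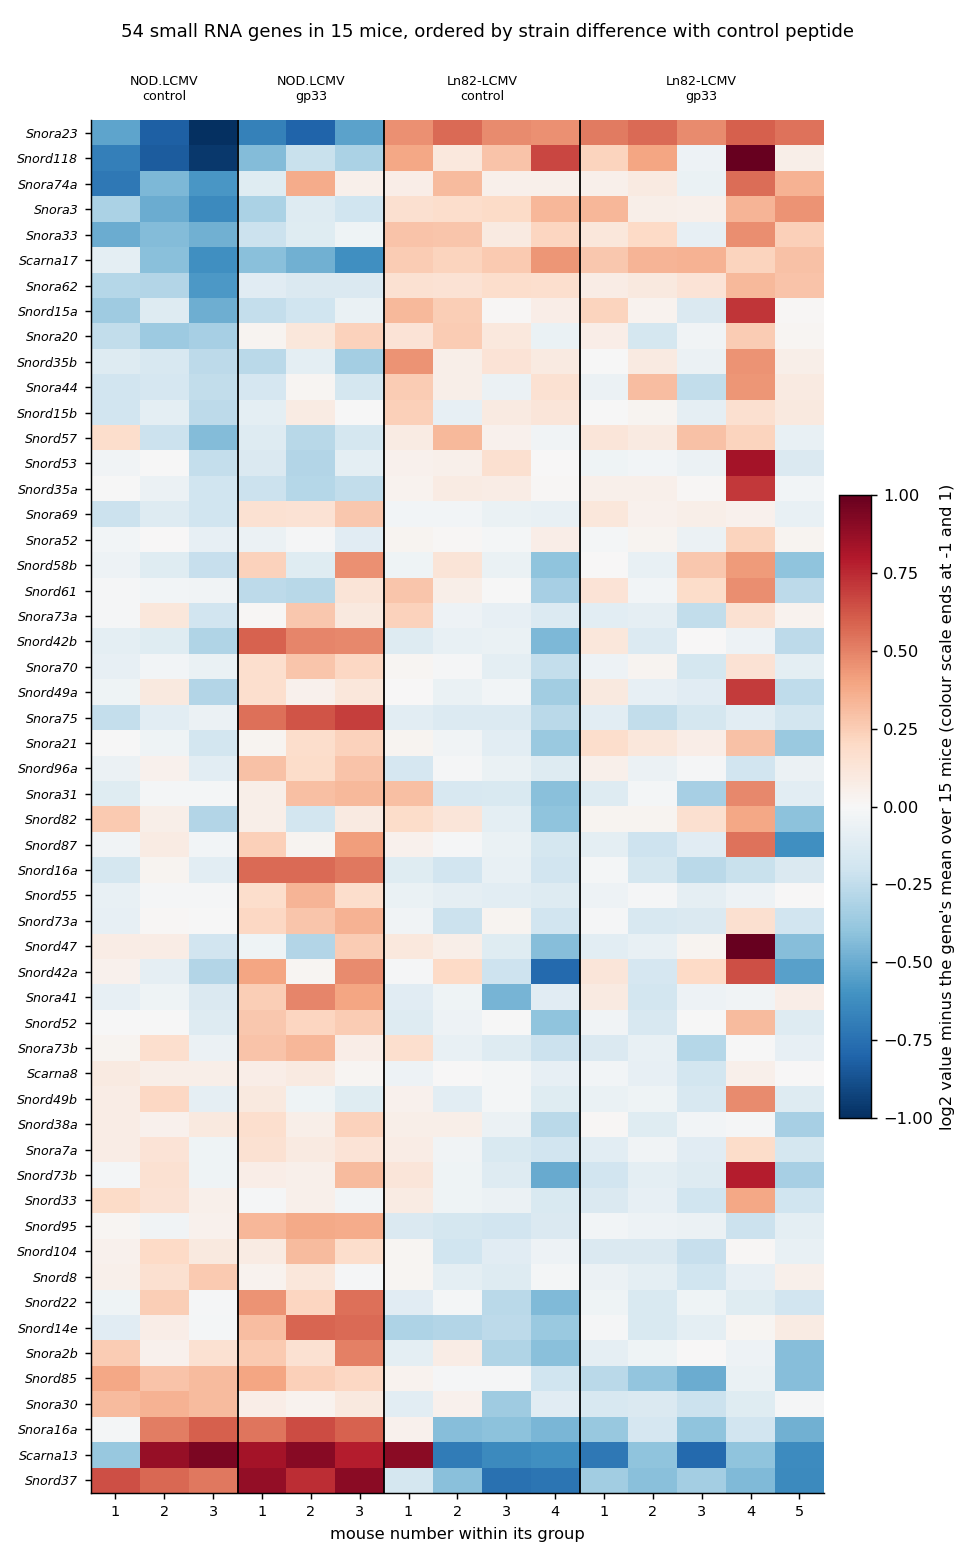
Deviation of each of the 54 small RNA genes (rows) from its own mean over the 15 arrays, in log2 units, for each mouse (columns) by group. NOD.LCMV mice with gp33 are high for many genes, and NOD.Ln82-LCMV gp33 mouse 4 had the highest of the 15 levels for 23 genes.

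In NOD.LCMV thymus, a group of these small RNAs was higher 2 h after gp33 than after control peptide. Of the 54 genes, 16 rose and 1 fell, where a change means an adjusted p under 0.05 in a limma model of all genes. Snora75, from an intron of the nucleolin gene Ncl, rose most, 1.69-fold, followed by Snord42b, from the ribosomal protein gene Rpl23a, 1.62-fold. When any 1 mouse was left out, 12 to 18 of the 54 rose. Among all genes tested, 7.29% rose and 12.5% fell. The median difference was 0.21 over the 54 genes and −0.03 over all genes.

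By class, 8 of 31 box C/D RNAs and 8 of 20 box H/ACA RNAs rose, and none of the 3 Cajal-body RNAs passed the test. By host, 8 of 21 genes in ribosomal protein genes rose, 6 of 17 in other protein-coding genes and 2 of 15 in long non-coding RNA genes. The difference between these shares was not tested. The rises ranged from 0.25 to 0.76, or 1.19-fold to 1.69-fold. For 15 of the 16 the mice with gp33 were all above the mice with control peptide, and the exception was Snord22. These 16 were picked by a test that favours separated groups, so this count adds little to the calls. Over all the small RNA genes, called or not, the groups were apart in either direction for 22 and overlapped for 32. The matching share over all genes measured was not counted, so these counts cannot be read as particular to the small RNAs. With 3 mice against 3, an exact permutation test of a single gene cannot go below p = 0.1.

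Snora75, which guides pseudouridylation, stood at 8.83, 8.96 and 9.01 in the NOD.LCMV mice with control peptide. With gp33 it stood at 9.62, 9.70 and 9.76. The groups did not overlap, and the difference was 0.76 ± 0.06 (SE, n = 3 and 3; adjusted p = 2.67e-07).

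Snord16a, a box C/D RNA within the ribosomal protein gene Rpl4, was at 9.64, 9.84 and 9.71 with control peptide and at 10.38, 10.38 and 10.34 with gp33. The 3 gp33 values lay close together and all above the controls. Its difference was 0.64 ± 0.06 (SE; adjusted p = 3.72e-06), a rise of 1.55-fold.

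Snord42b was at 9.33, 9.31 and 9.13 with control peptide and at 10.02, 9.92 and 9.91 with gp33, again without overlap. Its difference was 0.69 ± 0.10 (SE; adjusted p = 0.000167). Its neighbour in the same host, Snord42a, gave 0.41 and did not pass the test (adjusted p = 0.351).

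Snora74a, within the non-coding host Snhg4, was at 8.79, 9.05 and 8.92 with control peptide and at 9.38, 9.87 and 9.55 with gp33. The lowest gp33 mouse lay above the highest control, and the difference was 0.68 ± 0.15 (SE; adjusted p = 0.00369). Snord14e, which lies in the heat shock gene Hspa8 and belongs to the U14 family needed to process precursor ribosomal RNA, was at 10.59, 10.77 and 10.68 and then at 11.01, 11.28 and 11.27. The groups were apart by 0.51 ± 0.08 (SE; adjusted p = 0.000191).

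Smaller rises were measured for Snora41 (0.47), Snora20 (0.44), Snora69 (0.37), Snord95 (0.35) and Snora33 (0.34). These are box H/ACA RNAs apart from Snord95, which lies in Rack1, the gene of a ribosome-associated scaffold protein. The rise of Snora33 was no longer past the threshold without control mouse 1 or 3 or without gp33 mouse 2 or 3 (adjusted p between 0.0634 and 0.0897). The 6 other genes that rose were Snord22 (0.34), Snord73a (0.30), Snord96a (0.29), Snora70 (0.28), Snord55 (0.26) and Snora62 (0.25). Snord22, within Snhg1, was at 7.96, 8.25 and 7.99 with control peptide and at 8.45, 8.22 and 8.55 with gp33, so that the gp33 mouse at 8.22 lay below the highest control.

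Snora30, which lies in the chromatin remodeller gene Srcap, was the gene that fell. It was at 9.10, 9.13 and 9.10 with control peptide and at 8.85, 8.82 and 8.88 with gp33. The groups were apart, by −0.26 ± 0.08 (SE; adjusted p = 0.0241), but the call was lost without any 1 of 5 of these 6 mice (adjusted p between 0.0549 and 0.0795) and was kept without gp33 mouse 3. Next in this direction by unadjusted p, and not past the threshold, were Snord8 with a difference of −0.11 and Scarna17 with −0.13.

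**Figure D2:**
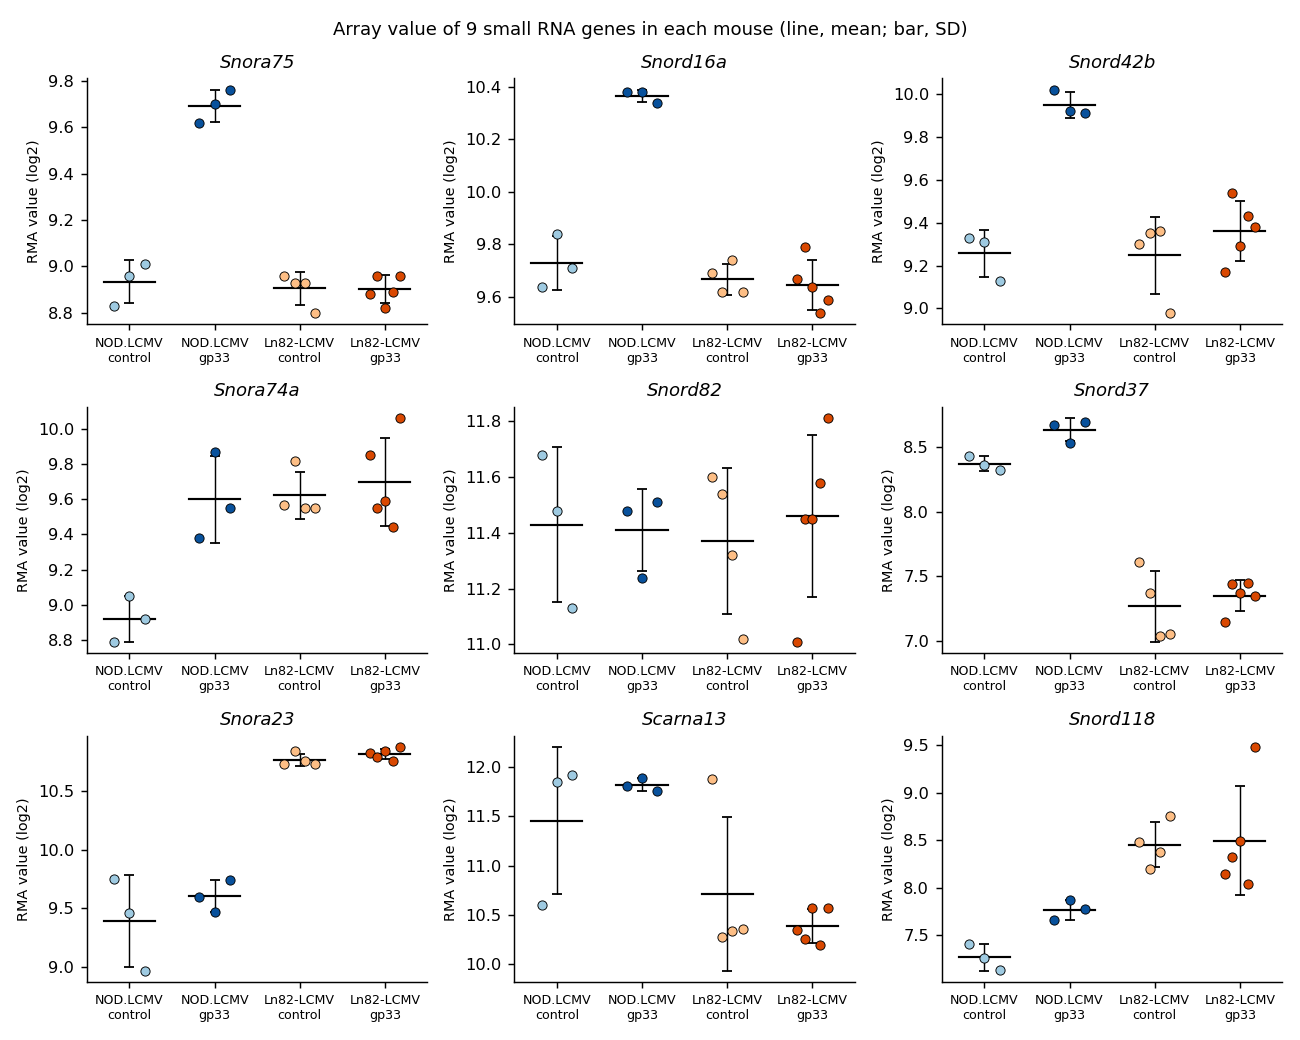
Deposited log2 level of 9 small RNA genes (vertical axes) in each of the 15 mice by strain and peptide, with a point for each mouse, a line at each group mean and a bar for the SD. Snora75 lies between 9.62 and 9.76 in NOD.LCMV mice with gp33 and between 8.80 and 9.01 in the other 12 mice.

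In NOD.Ln82-LCMV thymus, none of the 54 genes passed the test after gp33. Across all genes 1 of 19938 rose (0.00502%) and 0% fell. At an unadjusted p under 0.05, 1 of the 54 genes was higher and 1 lower. Their median difference was 0.04 and that of all genes 0.00, and without gp33 mouse 4 no gene passed either and the median of the 54 was −0.02. Of the 16 genes that rose in NOD.LCMV mice, 12 had a positive difference in this strain, and their differences ran from −0.08 to 0.28 with a median of 0.05.

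Snord14e was the highest of these values. It was at 10.39, 10.41, 10.44 and 10.33 with control peptide and at 10.69, 10.55, 10.60, 10.72 and 10.78 with gp33. These groups were apart, by 0.28 ± 0.06 (SE, n = 4 and 5), with an exact two-sided permutation p of 0.0159, the smallest that 4 against 5 mice allow, and an adjusted p of 0.357 over all genes. Snora69 (0.09) and Snora41 (0.16) came next by unadjusted p. On the low side Snord85, a box C/D RNA, was at 8.47, 8.42, 8.42 and 8.23 and then at 8.16, 8.04, 7.94, 8.37 and 8.01, so that 1 gp33 mouse overlapped the controls. Its difference was −0.28 ± 0.08 (SE; adjusted p = 0.614).

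The response to gp33 was larger in NOD.LCMV than in NOD.Ln82-LCMV mice for 6 of the 54 genes, namely Snora75, Snord16a, Snord42b, Snora20, Snora69 and Snord95, and smaller for none. This was tested as the difference between the strains' responses in the same model. Across all genes this difference was higher for 4.46% and lower for 4.26%, and 16 of the 54 were higher and 1 lower at an unadjusted p under 0.05. The median over the 54 was 0.18, against −0.04 over all genes.

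Snora75 had a response in NOD.LCMV that exceeded that in NOD.Ln82-LCMV by 0.76 ± 0.08 (SE; 95% interval 0.60 to 0.93; adjusted p = 1.08e-05). In NOD.Ln82-LCMV mice it was at 8.96, 8.93, 8.93 and 8.80 with control peptide. With gp33 it was at 8.96, 8.82, 8.89, 8.96 and 8.88. All 9 of these mice lay within the range of the NOD.LCMV controls or just below it, and none reached the NOD.LCMV mice with gp33.

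Snord16a likewise was at 9.69, 9.62, 9.74 and 9.62 with control peptide and at 9.79, 9.64, 9.54, 9.59 and 9.67 with gp33 in NOD.Ln82-LCMV mice, which overlapped. Its responses differed by 0.66 ± 0.08 (SE; adjusted p = 9.09e-05). For Snord42b the difference was 0.58 ± 0.13 (adjusted p = 0.0116), with 9.30, 9.35, 9.36 and 8.98 against 9.54, 9.29, 9.43, 9.38 and 9.17 in NOD.Ln82-LCMV mice. Here too the mice with either peptide overlapped.

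The other differences between responses were 0.52 ± 0.12 for Snora20, 0.28 ± 0.07 for Snora69 and 0.28 ± 0.06 for Snord95, with adjusted p of 0.015, 0.0151 and 0.0114. Snora30 (−0.26, adjusted p = 0.131), Snord35a (−0.27) and Snord8 (−0.09) had the smallest unadjusted p in the opposite direction and did not pass. Without NOD.Ln82-LCMV gp33 mouse 4, all 6 genes kept their call and 10 passed in all, and 18 of the 54 rose and 2 fell in NOD.LCMV mice. In NOD.LCMV mice 12 of the 54 rose without NOD.LCMV gp33 mouse 2 or without mouse 3. Without NOD.Ln82-LCMV control mouse 2, Snora30 passed as lower at −0.32 (adjusted p = 0.0392).

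**Figure D3:**
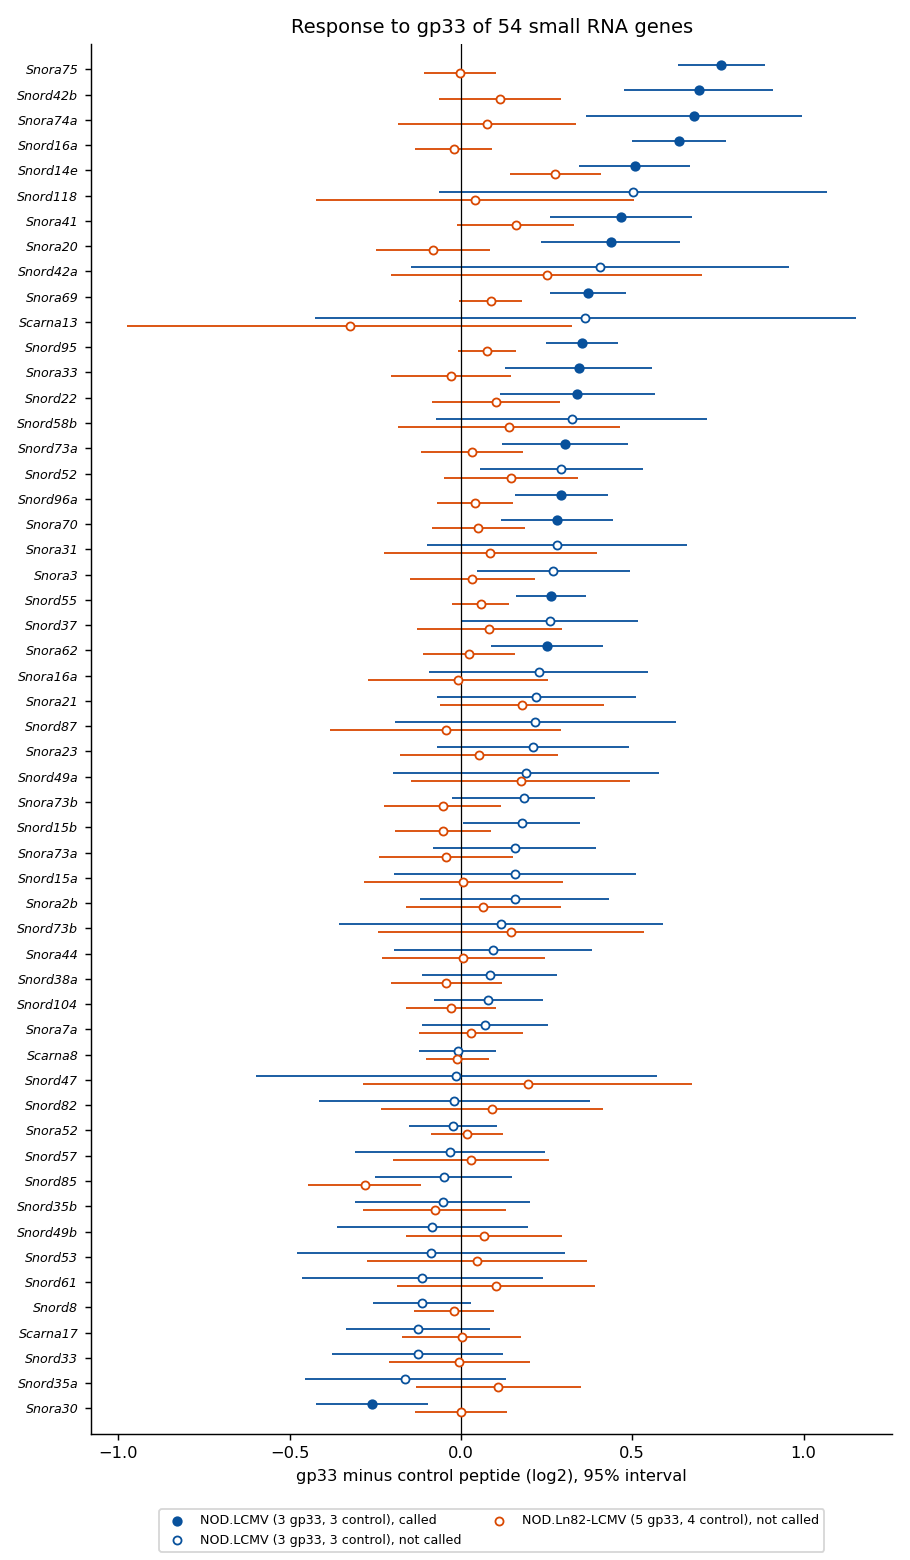
Log2 difference gp33 minus control peptide with its 95% interval for each of the 54 small RNA genes in NOD.LCMV and in NOD.Ln82-LCMV mice. In NOD.LCMV mice 16 genes rose and 1 fell, with Snora75 at 0.76, and in NOD.Ln82-LCMV mice none passed the test.

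Host transcripts gave a different picture from the small RNAs inside them. Of the 54 genes, 28 lay in a host that the array measured, in 24 hosts. In NOD.LCMV mice after gp33, 11 of these 28 small RNAs changed, 10 up and 1 down. The host moved the same way for 2 of the 11 and did not pass the test for 9. All 5 hosts that changed rose, and 4 small RNAs in such hosts did not pass. Changed hosts were 20.8% of the 24, and 19.8% of all genes changed, of which 7.29% rose and 12.5% fell. Across the 28 pairs the Pearson correlation of small RNA and host differences was −0.07. The pairs share arrays, and some share a host, so it is a description.

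The pairs that changed together were Snora75 with Ncl, the gene of a nucleolar protein that binds precursor ribosomal RNA (0.76 and 0.38), and Snora20 with Tcp1, a subunit of a cytosolic chaperonin (0.44 and 0.18). Rises without a change of the host included Snord16a in Rpl4 (0.64 and 0.05) and Snord42b in Rpl23a (0.69 and 0.01). The 95% intervals of these host differences were −0.05 to 0.15 for Rpl4 and −0.09 to 0.11 for Rpl23a. Snord14e rose by 0.51 while its host Hspa8 gave 0.12 (adjusted p = 0.147).

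The reverse was measured for Wdr43, which encodes a factor of the small-subunit processome and rose by 0.76 with its Snord53 at −0.09. Nop56, a core protein of box C/D particles, rose by 0.41 with its Snord57 at −0.03. Ipo7, an import receptor, rose by 0.32 with its Snora23 at 0.21, and Ncl rose with its second RNA, Snord82, at −0.02. Snord82 was at 11.68, 11.48 and 11.13 in NOD.LCMV controls and at 11.48, 11.24 and 11.51 with gp33, with a 95% interval of −0.42 to 0.38. That interval is wider than for Snora75 in the same host (0.63 to 0.89).

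**Figure D4:**
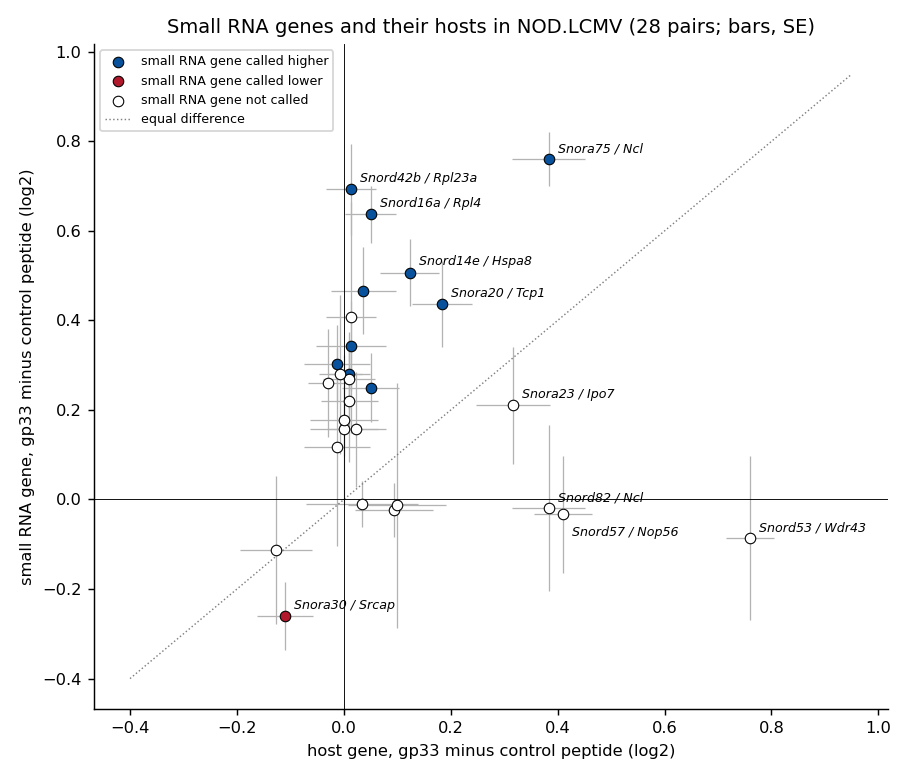
Log2 difference gp33 minus control peptide in NOD.LCMV mice for each of 28 small RNA genes (vertical axis) against that of its host gene (horizontal axis), with bars for the SE. Snord16a and Snord42b rose with hosts near 0, and Snord53 lies near 0 with Wdr43 at 0.76.

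Small RNAs of the same host did not always move alike. Of the 10 hosts with a pair, 1 had both RNAs rise in NOD.LCMV mice after gp33, namely Rack1 with Snord95 (0.35) and Snord96a (0.29). In 4 hosts 1 of the pair rose, among them Ncl (Snora75 0.76, Snord82 −0.02), Rpl23a (Snord42b 0.69, Snord42a 0.41) and Rps3a1 (Snord73a 0.30, Snord73b 0.12). In the other 5 neither passed, namely Rpl13a (Snord33 −0.13, Snord35a −0.16), Rps3 (Snord15a 0.16, Snord15b 0.18), Snhg12 (Snora16a 0.23, Snora44 0.09), Snhg3 (Snora73a 0.16, Snora73b 0.18) and 2410006H16Rik (Snord49a 0.19, Snord49b −0.08). The pair had the same sign in 8 of 10 hosts. The difference between the members of a pair was not tested.

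Protein genes of small nucleolar RNA metabolism also rose in NOD.LCMV mice after gp33, where 7.29% of all genes rose and 12.5% fell. All 4 core proteins of box H/ACA particles rose, namely Nhp2 (0.53), Gar1 (0.49), the pseudouridine synthase Dkc1 (0.44) and Nop10 (0.19). Of the 4 core genes of box C/D particles 3 rose, namely Nop58 (0.69), Nop56 (0.41) and the methyltransferase Fbl (0.34). Among 14 genes of particle assembly and the Cajal body 7 rose and 1 fell. The assembly factors Naf1 and Znhit6 rose by 0.90 each, the nucleolar phosphoprotein Nolc1 by 0.64 and Nufip1 by 0.48, and the gene that fell was Pih1d1 (−0.19).

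The processome that forms on the U3 RNA had 13 of 16 measured protein genes higher, none lower and a median difference of 0.51. Rrp9 rose by 0.85, Utp20 and Wdr43 by 0.76 and Heatr1 by 0.70. Of 9 genes of intron trimming and decay 1 rose, the exosome nuclease Dis3 (0.54), against 7.29% of all genes. Among 10 measured genes of a list of non-coding hosts 3 rose, namely Snhg15 (0.49), Snhg5 (0.32) and Snhg17 (0.25). None of these 3 is a host of any of the 54 genes. That list also names Rmrp, Rpph1 and Terc, which the list of other small RNA genes names too. Of 11 other small RNA genes, none rose and the Y RNA Rny3 fell (−0.23), where 7.29% of all genes rose and 12.5% fell. The U3 RNA gene Rnu3a gave 0.26 and did not pass (adjusted p = 0.119).

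In NOD.Ln82-LCMV mice no gene of any of these 7 lists passed the test. The response was larger in NOD.LCMV mice for 12 of 16 processome genes, 6 of 14 assembly genes and 2 of 4 box C/D core genes. It was larger for 1 of 4 H/ACA core genes, 1 of 9 trimming genes and 1 of 10 genes of the non-coding host list (Snhg15). Of 11 other small RNA genes it was larger for 1, Rnu3a, by 0.49 (adjusted p = 0.0444). No gene of these lists had a smaller response. Across all genes the response was larger for 4.46% and smaller for 4.26%. As a measure of the same list on each array, the processome mean was 9.68 to 9.73 in NOD.LCMV controls and 10.16 to 10.18 with gp33. It was 9.73 to 9.82 and 9.76 to 9.89 in NOD.Ln82-LCMV mice, where the groups overlapped.

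Markers of cell types moved with the gp33 response in NOD.LCMV mice, where 7.29% of all genes rose and 12.5% fell. Of 11 thymocyte markers 6 fell and none rose, with a list mean of 11.45 to 11.66 in controls and 10.93 to 11.49 with gp33. Of 5 granulocyte markers 3 rose, namely Mmp8 (1.43), S100a9 (1.25) and S100a8 (0.80), with a list mean of 6.89 to 7.19 and then 7.55 to 8.02. In NOD.Ln82-LCMV mice the granulocyte mean was 6.63 to 6.86 and 6.76 to 7.26, and the thymocyte mean was 11.52 to 11.74 and 11.43 to 11.72. Of 8 thymic epithelial markers 2 fell in NOD.LCMV mice, and none of the 4 B cell, 6 adipocyte, 4 muscle and 1 red cell markers passed. Their part in the small RNA results was not tested.

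With control peptide the strains differed for 17 of the 54 genes, 7 higher and 10 lower in NOD.LCMV than in NOD.Ln82-LCMV mice. Snora23, a box H/ACA RNA within Ipo7, was 2.58-fold lower, and Snord37, a box C/D RNA within the elongation factor gene Eef2, was 2.14-fold higher. Among all genes 4.77% were higher and 5.54% lower. The medians were 0.06 over the 54 and 0.01 over all genes, and the first was −0.03 without NOD.Ln82-LCMV control mouse 4. By class the counts were 5 higher and 3 lower of 31 box C/D RNAs, 2 higher and 6 lower of 20 H/ACA RNAs and 1 lower of 3 Cajal-body RNAs.

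The split depended on the scaling of arrays. Of the calls 41.2% were higher as deposited, and 29.4% (5 higher, 12 lower) after each array was centred on its median. Without NOD.LCMV control mouse 3 there were 4 higher calls. The strain comparisons reuse the arrays of the gp33 comparisons.

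Under gp33 the strains differed for 29 of the 54 genes, 21 higher and 8 lower in NOD.LCMV mice. Among all genes 10.2% were higher and 16.8% lower, and the medians were 0.15 over the 54 and −0.02 over all genes. The counts were 12 higher and 3 lower for box C/D, 8 and 4 for H/ACA and 1 and 1 for Cajal-body RNAs. Without NOD.LCMV gp33 mouse 1 or mouse 3 there were 5 lower calls. Without NOD.Ln82-LCMV gp33 mouse 4 there were 26 higher calls, 20 of them among the 21, and 8 lower. When any 1 mouse was left out, higher calls numbered 17 to 26.

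The strain comparisons under the 2 peptides compare different arrays. Both tests take a gene's spread from all 15 arrays in the same model, so their calls are not fully independent. The 2 comparisons had 13 calls in common, 6 higher and 7 lower in both, which were 76.5% of the control-peptide calls and 44.8% of the gp33 calls. The matching shares over all genes were not counted, so these percentages cannot be read as particular to the small RNAs. Of the 17 control-peptide calls 16 had the same sign under gp33, and Snora20 was the exception (−0.42 and 0.10). The calls found under gp33 alone were 15 higher and 1 lower, and 4 were found with control peptide alone.

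Snora23 was at 9.75, 9.46 and 8.97 in NOD.LCMV controls and at 9.60, 9.47 and 9.74 with gp33. In NOD.Ln82-LCMV mice it was at 10.73, 10.84, 10.75 and 10.73 with control peptide and at 10.79, 10.84, 10.75, 10.87 and 10.82 with gp33. The strains did not overlap under either peptide. The difference was −1.37 ± 0.12 with control peptide (SE; adjusted p = 3.7e-05) and −1.21 ± 0.12 with gp33 (adjusted p = 1.97e-06). Its host Ipo7 gave −0.17 with control peptide and did not pass.

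Snord37 showed the opposite order, at 8.43, 8.36 and 8.32 in NOD.LCMV controls and at 8.67, 8.53 and 8.69 with gp33. In NOD.Ln82-LCMV mice it was at 7.61, 7.37, 7.04 and 7.06 and at 7.44, 7.37, 7.45, 7.35 and 7.15. No mouse of 1 strain reached the other. The differences were 1.10 ± 0.11 (adjusted p = 7.44e-05) and 1.28 ± 0.11 (SE; adjusted p = 4.96e-07), while its host Eef2 gave 0.04 with control peptide.

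Snord118, the RNA of large-subunit ribosomal RNA processing, was at 7.41, 7.26 and 7.13 in NOD.LCMV controls and at 8.48, 8.20, 8.38 and 8.76 in NOD.Ln82-LCMV controls. With gp33 it was at 7.66, 7.87 and 7.78 against 8.32, 8.49, 8.04, 9.48 and 8.15. The strains were apart in both, by −1.19 ± 0.25 (adjusted p = 0.00671) and −0.73 ± 0.24 (SE; adjusted p = 0.0327). The gp33 call was lost without any 1 of the 3 NOD.LCMV gp33 mice or without NOD.Ln82-LCMV gp33 mouse 2 (adjusted p between 0.0554 and 0.109). Without NOD.Ln82-LCMV gp33 mouse 4, at 9.48, the gp33 difference was −0.48 and still passed.

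The Cajal-body RNA Scarna17 was lower in NOD.LCMV mice under both peptides (−0.67 and −0.80), as were the box H/ACA RNAs Snora3 (−0.70 and −0.46), Snora33 (−0.69 and −0.31) and Snora62 (−0.55 and −0.32) and the box C/D RNA Snord35b (−0.37 and −0.34). Snora33 under gp33 overlapped between the strains and lost its call without NOD.LCMV gp33 mouse 1 (adjusted p = 0.0799). Snord35b lost its control-peptide call without any 1 of 13 of the 15 mice, and its gp33 call without NOD.LCMV gp33 mouse 1 or 3. Snora74a (−0.70), Snora20 (−0.42) and Snord15b (−0.28) were lower with control peptide, and gave −0.10, 0.10 and −0.05 under gp33. The call for Snord15b was lost without any 1 of 5 control mice (adjusted p between 0.0556 and 0.14). Snord35a was lower under gp33 (−0.41), and not without NOD.LCMV gp33 mouse 2 or 3.

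Higher in NOD.LCMV mice under both peptides were Snora16a, which lies in Snhg12 (0.68 and 0.91), Snora30 (0.46 and 0.20), Snord85 (0.38 and 0.61), Snord14e (0.29 and 0.52) and Snord95 (0.17 and 0.45). Snora16a overlapped between the strains with control peptide, where it was 10.47, 11.00 and 11.09 against 10.53, 10.06, 10.08 and 10.03. With control peptide the calls for Snord85 and Snord14e were lost without NOD.LCMV control mouse 1 and without mouse 2 or 3, respectively. The control-peptide calls for Snord95 and for Snord8 (0.21) were lost under median centring, at adjusted p of 0.17 and 0.133, and without several single mice. Among the genes that were higher under gp33 alone were Snora75 (0.79), Snord16a (0.72), Snord42b (0.59) and Snord22 (0.51).

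Scarna13, a Cajal-body RNA in Snhg10, took either a low or a high level in nearly all mice. NOD.LCMV controls were at 10.60, 11.85 and 11.92 and NOD.LCMV gp33 mice at 11.81, 11.89 and 11.76. NOD.Ln82-LCMV controls were at 11.88, 10.28, 10.34 and 10.36 and gp33 mice at 10.26, 10.57, 10.20, 10.57 and 10.35. So 1 control mouse of each strain lay with the other strain. The strain difference was 1.43 ± 0.33 under gp33 (SE; adjusted p = 0.00409) and 0.74 ± 0.35 with control peptide (adjusted p = 0.222). Without NOD.LCMV control mouse 1 the control-peptide difference was 1.17 (adjusted p = 0.0428), and without NOD.Ln82-LCMV control mouse 1 it was 1.13 (adjusted p = 0.00671).

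**Figure D5:**
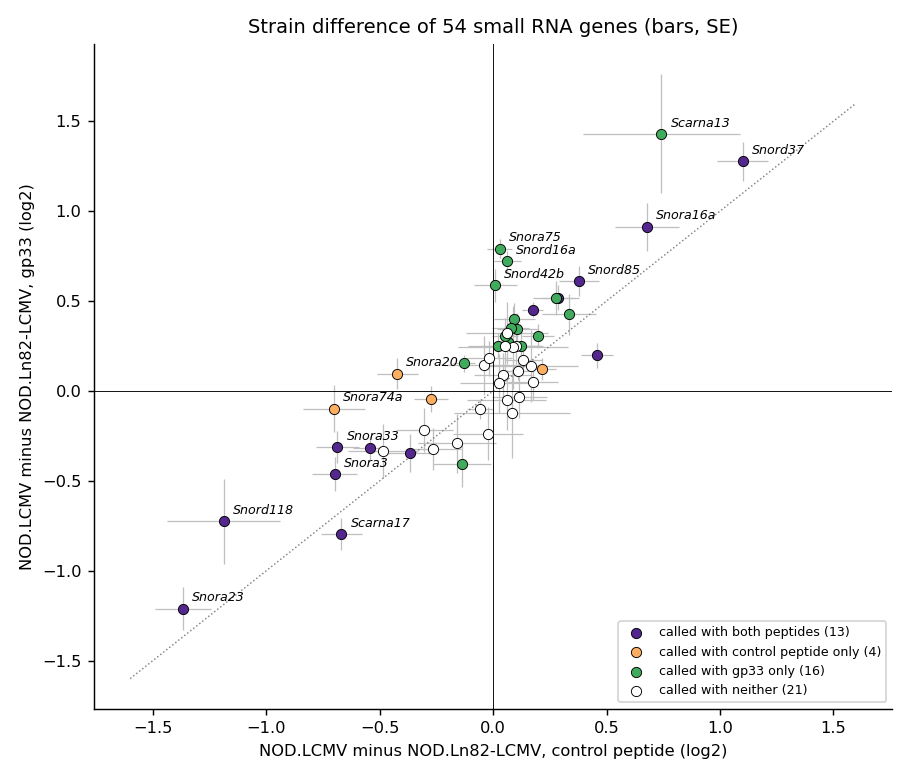
Log2 difference NOD.LCMV minus NOD.Ln82-LCMV with gp33 (vertical axis) against that with control peptide (horizontal axis) for the 54 small RNA genes, with bars for the SE. Snora23 lies at −1.37 and −1.21 and Snord37 at 1.10 and 1.28, and 13 genes were called under both peptides.

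For strain, small RNA and host were set side by side in the same way. Across all genes 10.3% were called with control peptide and 27.0% under gp33, and among the 24 measured hosts 16.7% and 29.2%. With control peptide 9 of the 28 small RNAs in a measured host differed, and the host differed the same way for 2, namely Snora3 with Rpl27a (−0.70 and −0.19) and Snora30 with Srcap (0.46 and 0.39). The Pearson correlation over the 28 pairs was 0.49 with control peptide and −0.04 under gp33, again as a description. Under gp33, 14 of the 28 differed and the host differed the same way for 3. For 2 the host was called in the opposite direction, namely Snora70 with Rpl10 at −0.15 and Snord42b with Rpl23a at −0.22.

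Nfkbid, the gene in the study's title, lies on chromosome 7, and so do 9 of the 54 genes. With control peptide 1 of these 9 was higher and 4 were lower, and under gp33 again 1 and 4. The higher gene was Snora30 in both, and Snora23, Snora3 and Snord35b were lower in both. Of the 45 genes on other chromosomes 6 were higher and 6 lower with control peptide, and 20 and 4 under gp33. Over all genes on chromosome 7, 9.86% and 21.5% were called in the strain comparisons, against 10.4% and 27.6% elsewhere.

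Other lists also differed between the strains. Among all genes 4.77% were higher and 5.54% lower in NOD.LCMV with control peptide, and 10.2% and 16.8% under gp33. With control peptide 2 of 4 box C/D core genes and 3 of 4 H/ACA core genes were lower in NOD.LCMV mice and none higher. Under gp33, 14 of 16 processome genes were higher and 1 lower. Of the markers under gp33, 3 of 4 B cell, 4 of 8 thymic epithelial and 5 of 11 thymocyte markers were lower and 3 of 5 granulocyte markers higher. The B cell list mean was 7.48 to 8.01 in NOD.LCMV and 8.48 to 9.08 in NOD.Ln82-LCMV mice with gp33. Their part in the strain differences of the small RNAs was not tested.

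The widest ranges over the 15 mice were those of Snord118 (2.35), Snord37 (1.65) and Snord47 (1.49) among box C/D RNAs and of Snora23 (1.90), Snora74a (1.27) and Snora16a (1.13) among H/ACA RNAs. Snord47, within the non-coding host Gas5, owed its range to a few mice. It stood at 10.92 in NOD.Ln82-LCMV gp33 mouse 4 and between 9.43 and 10.11 in the other 14 mice, and it passed none of the tests. Scarna8, in the spindle factor gene Haus6, had the smallest range of the 3 Cajal-body RNAs, at 0.27, and its strain differences of 0.11 under each peptide did not pass. Scarna17 had a range of 1.05.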

How the data were processed

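Total RNA of whole thymus from 15 mice was measured on Affymetrix Mouse Gene ST arrays, with 1 array for each mouse. The deposited values are log2 intensities that the authors made with Affymetrix Expression Console 1.1 and RMA, per the submitters' processing notes. Of 35556 probe sets 21789 had 1 gene symbol in the platform annotation, 1621 had several and 12146 had none. The probe set of highest mean stood for each of 19938 symbols. Of the small RNA probe sets, 41 carried several symbols, 24 of them for Snord116, and were left out, so no imprinted Snord113 to Snord116 gene is a member.

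A limma 3.58.1 model (R 4.3.3) with a mean per group was fitted over all genes and all 15 arrays (11 residual and 14.91 total degrees of freedom). P-values were two-sided and adjusted by Benjamini-Hochberg over all genes, with a threshold of 0.05 in every statement that a gene rose, fell, differed or was called. Errors are moderated standard errors (SE), and intervals are 95%. Exact permutation tests of single genes used SciPy 1.17.1. Tested on simulated data for the gp33 response in NOD.LCMV over 19938 genes, the model recovered 90 of 100 genes changed by 0.5 log2 and 100 of 100 changed by 1 log2, with 5 false calls. The changed genes were drawn from all genes, with noise independent between genes. The small RNA genes have a wider spread (median SD 0.148 against 0.085), so this rate does not describe them. Precision is limited by how many arrays there are.

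The host was the shortest gene, other than a small RNA, whose RefSeq span holds the small RNA. The gene table gives no strand, so strand was not checked. Some hosts are not reported here. Genes were named by rule: in each comparison up to 10 members called in each direction by size, or else the 3 with the smallest p as values; the 3 widest ranges per class; the hosts with most members (10 tied); and up to 4 genes per pathway list. The rises of Snord22, Snora70 and Snora62 and the hosts compared individually were named after their values were seen. The members, gene lists and tests were chosen with earlier results of these data known. Replicates are separate mice per the labels' protocols. Replicate numbers are shared by NOD.Ln82-LCMV groups alone. Alternatives covered the scaling, probe sets, dim genes, variance model, array weights, arrays fitted, replicate block and each mouse left out.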

Additional observations from a re-analysis of the deposited data

Results flagged for a closer look

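In a group of 4 or 5 mice, 1 mouse stood far from the others in 6 of 54 such tests. Chance alone flags about 1 in 20 such groups, but the 27 genes tested were those named for a call or for the widest range over these mice, so that rate does not apply to them. Among NOD.Ln82-LCMV mice with control peptide, Scarna13 was at 11.88 in mouse 1 and between 10.28 and 10.36 in the other mice. Snora16a was at 10.53 in the same mouse and between 10.03 and 10.08 in the others. Snora74a was at 9.82 in mouse 2 and between 9.55 and 9.57 in the others, and Snora41 was at 6.50 in mouse 3 and between 6.85 and 6.92 in the others. Snord42b was at 8.98 in mouse 4 and between 9.30 and 9.36 in the others. Among NOD.Ln82-LCMV mice with gp33, Snord35a was at 12.09 in mouse 4 and between 11.36 and 11.44 in the others.

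The response to gp33 differed between the strains, by a test of the difference itself, for 6 genes. NOD.LCMV exceeded NOD.Ln82-LCMV by 0.76 for Snora75, 0.66 for Snord16a, 0.58 for Snord42b, 0.52 for Snora20, 0.28 for Snora69 and 0.28 for Snord95, each on the log2 scale.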

How the results depend on the processing

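No gene named as called changed sign under an alternative, but medians near 0 did. Of the counts of genes called, 80 values under alternatives other than leaving out a mouse stayed within 1.5 times the reported count or kept 0, and 4 did not. With array weights, 10 genes had a larger gp33 response in NOD.LCMV (6 as reported) and 1 a smaller one (0 as reported), and 12 were higher in NOD.LCMV with control peptide (7 as reported). With every probe set on its own, 2 were lower in NOD.LCMV after gp33, both of them probe sets of Snora30. With a mouse left out, genes that rose in NOD.LCMV after gp33 numbered 12 to 18 (16 as reported) and genes that fell there 0 to 2. Genes with a larger response there numbered 6 to 10 and genes with a smaller one 0 to 1. Genes higher in NOD.LCMV numbered 4 to 9 with control peptide and 17 to 26 with gp33, and genes lower there with gp33 numbered 5 to 9. The median strain difference with control peptide was −0.03 without NOD.Ln82-LCMV control mouse 4 and −0.01 under median centring (0.06 as reported), and the median gp33 response in NOD.Ln82-LCMV was −0.02 without gp33 mouse 4 (0.04 as reported). With the replicate block, 18 genes rose in NOD.LCMV, 0 changed in NOD.Ln82-LCMV and 7 had a larger response. Same-numbered NOD.Ln82-LCMV mice correlated at 0.117, 0.008, −0.05 and −0.226, so the numbers were not taken as pairs. The causes were not tested. For single genes named in the text, 511 values under alternatives kept their side of the threshold, 11 lost it and 1 gained it, and with a mouse left out 893 kept it, 51 lost it and 1 gained it. Signal over background was not used here, and 2 of the 54 genes had a mean under the dim limit of 6.92.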

Other observations

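Some small RNA probe sets carry several gene names and therefore entered no test, so their values are given as descriptions. Those of Snord14c and Snord14d, which share a probe set name with the host Hspa8, gave a log2 difference of 0.57 after gp33 in NOD.LCMV and 0.17 to 0.18 in NOD.Ln82-LCMV. The probe set of Snord14a and Rps13 gave 0.39 and 0.10, and that of Snora65 and Rpl12 gave 0.37 and 0.16. These were named after their values were seen. Others did not rise more in NOD.LCMV, namely Snord1b with Snord1c (0.21 and 0.32) and Snord68 with Rpl13 (0.16 and 0.18). Differences below 0 after gp33 in NOD.LCMV included those of Snord34 (−0.20), Snord32a (−0.13), Snora34 (−0.10), Snord7 (−0.08), Snora43 (−0.06) and Snora36b (−0.03). The probe set of Snord34 and Rpl13a was lower in NOD.LCMV than in NOD.Ln82-LCMV by −0.35 with control peptide and by −0.64 with gp33. That of Snord68 and Rpl13 gave −0.36 and −0.39. The SD within groups was 0.33 for Snord68, 0.22 for Snord34 and 0.38 for Snord1b with Snord1c. It was 0.06 for Snord14a, 0.07 for Snord14c with Snord14d and 0.09 for Snora65.

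The 24 probe sets of the imprinted Snord116 cluster, many of which hold identical values, gave differences from −0.20 to −0.10 after gp33 in NOD.LCMV and from −0.08 to −0.02 in NOD.Ln82-LCMV. The strain differences ran from −0.28 to −0.13 with control peptide and from −0.42 to −0.21 with gp33. The group means of these probe sets lay between 5.31 and 5.94, all under the dim limit of 6.92. Their SD within groups was 0.23 to 0.36.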
